A study of Mus musculus with 10 samples.

Results

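The C/EBP family was represented on the array by 6 genes of 27827 distinct gene names, and by 13 of 41174 non-control probes, chosen because the array's own gene name for them was Cebpa, Cebpb, Cebpd, Cebpg, Cebpz or Ddit3. Cebpg had 3 probes and Cebpz 4, Cebpa and Cebpb had 2 each, and Cebpd and Ddit3 had 1 each. No probe carried the name of Cebpe, and that gene is not analysed here. Each probe was measured in spontaneous lymphomas of 5 mice heterozygous for the LIP allele of C/EBPb (+/L; mice 20, 23, 517, 688 and 866) and of 5 wild-type mice (+/+; mice 11, 17, 19, 40 and 101), with 1 single-colour array per tumour. The tumours arose spontaneously, and the mice were followed until a lymphoma could be felt. How the LIP allele was built and the strain background are not given in the labels. The +/L mice were 11 to 21 months old (18.0 ± 4.1, SD, n = 5) and the +/+ mice 20 to 29 months (24.9 ± 3.5, SD, n = 5). This difference in age passed an exact two-sided permutation test (p = 0.032), so genotype and age were partly confounded. The labels name the tissue only as lymphoma and give no cell lineage.

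C/EBP proteins are basic leucine zipper (bZIP) transcription factors that bind DNA as homodimers or heterodimers with one another. Cebpa and Cebpb drive the differentiation of granulocytes, macrophages, hepatocytes and adipocytes, and Cebpb and Cebpd are induced in inflammation. Cebpb mRNA is translated from alternative start codons into the long activating isoforms LAP* and LAP and the short isoform LIP, which keeps the DNA-binding and dimerisation parts but lacks the activation domains. Cebpg and Ddit3 (CHOP) act largely as dimer partners that lack a strong activation domain or alter DNA binding. Cebpz carries the family's name because it binds CCAAT sequences, but it is a nucleolar protein related to ribosome biogenesis factors and not a bZIP factor.

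The probes of Cebpa, Cebpb and Cebpg that lie in the zipper-coding part of the messages are shown because they name what the array could and could not see. They are sense sequences of 60 bases from the array design, at mm9 coordinates given in the scanner files, and the capitals mark leucine codons placed 7 codons apart.
Cebpb A_52_P605846 (chr2:167515309-167515368, + strand): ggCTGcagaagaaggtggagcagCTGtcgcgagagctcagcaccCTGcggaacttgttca
Cebpa A_51_P214087 (chr7:35905361-35905420, + strand): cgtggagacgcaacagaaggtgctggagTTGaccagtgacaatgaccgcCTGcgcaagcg
Cebpg A_52_P438082 (chr7:35835477-35835536, - strand): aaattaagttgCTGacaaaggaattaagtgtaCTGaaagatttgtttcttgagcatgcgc
The Cebpb probe held 3 such codons, a spacing found in 1.13% of all 60-base probes of the array in a frame without a stop codon. The Cebpa and Cebpg probes held 2 each, and 16.3% of all probes held 2 or more. The other Cebpa probe, A_52_P168567, also held 2. Such a pair alone thus does not place a probe in the zipper-coding part. Since LIP contains the zipper, a probe there detects the mRNA of every C/EBPb isoform and cannot tell LAP from LIP. The second Cebpb probe, A_52_P63553 (chr2:167515847-167515905, + strand), had a stop codon in each of its 3 frames and a polyadenylation hexamer at its base 42. It too cannot tell the isoforms apart. Whether the LIP allele keeps the sequences of these 2 probes is not given in the labels. The longest run of bases shared by probes of different members was 10 bases of 60.

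Levels are given as log2 of the background-subtracted signal minus the array's own 75th percentile, so that 0 is the level of the upper quartile of spots. They compare tumours for 1 probe, and not probes with each other. All 13 probes passed the filter of being well above background on at least 3 arrays: 12 were well above background on 10 of 10 arrays, and Cebpg A_51_P521216 on 9. The share of spots well above background was 48.0 to 64.7% on +/L arrays and 52.9 to 66.7% on +/+ arrays. Before scaling, the 75th percentile of the background-subtracted signal was 434 ± 129 units on +/L arrays and 288 ± 61.1 units on +/+ arrays (SD, n = 5 each). It was thus higher in +/L (exact permutation p = 0.032), so results were also computed under other scalings. The arrays of mice 20 (+/L) and 11 (+/+) did not match their labelled sex by Xist and 3 Y-linked genes, and the difference of each member's brightest probe is also given without them. The arrays fell on 3 slides, and the slide in the scanner headers differed from the slide in the description labels for mice 866 and 17; the headers were used. By the headers, slide 1 held mice 20 and 688 (+/L) and 17 and 40 (+/+), slide 2 mice 23 and 517 (+/L) and 11 (+/+), and slide 3 mice 866 (+/L) and 19 and 101 (+/+). All 8 B-cell markers and 7 of 8 T-cell markers were well above background on all 10 arrays, as were 10 of 10 macrophage markers. In bulk tumour RNA, fewer cells of a type and less RNA per cell cannot be told apart.

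No family probe differed between the genotypes after adjustment, and the groups overlapped for 13 of 13 probes. In limma over 26432 probes, the share called at an adjusted p under 0.05 was 0% (0 probes), against 7.95% at an unadjusted p under 0.05 (3.29% higher and 4.66% lower in +/L). At that unadjusted level, 2 of the 13 family probes were reached, Cebpg A_52_P121675 and Cebpz A_51_P412736, both higher in +/L. Groups that did not overlap made up 1.79% of all probes. In simulated data of this design, 14% of probes shifted by 1 log2 unit were recovered, with 60% at a shift of 2 and 77% at a shift of 3. Over all kept probes a difference near 1 log2 unit was thus mostly not detectable. The SD over tumours was 0.19 to 0.82 among the family probes, against a median of 0.56 over kept probes. Recovery was not computed for the family probes alone, and the steadier ones are better described by their limma intervals.

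**Figure D1:**
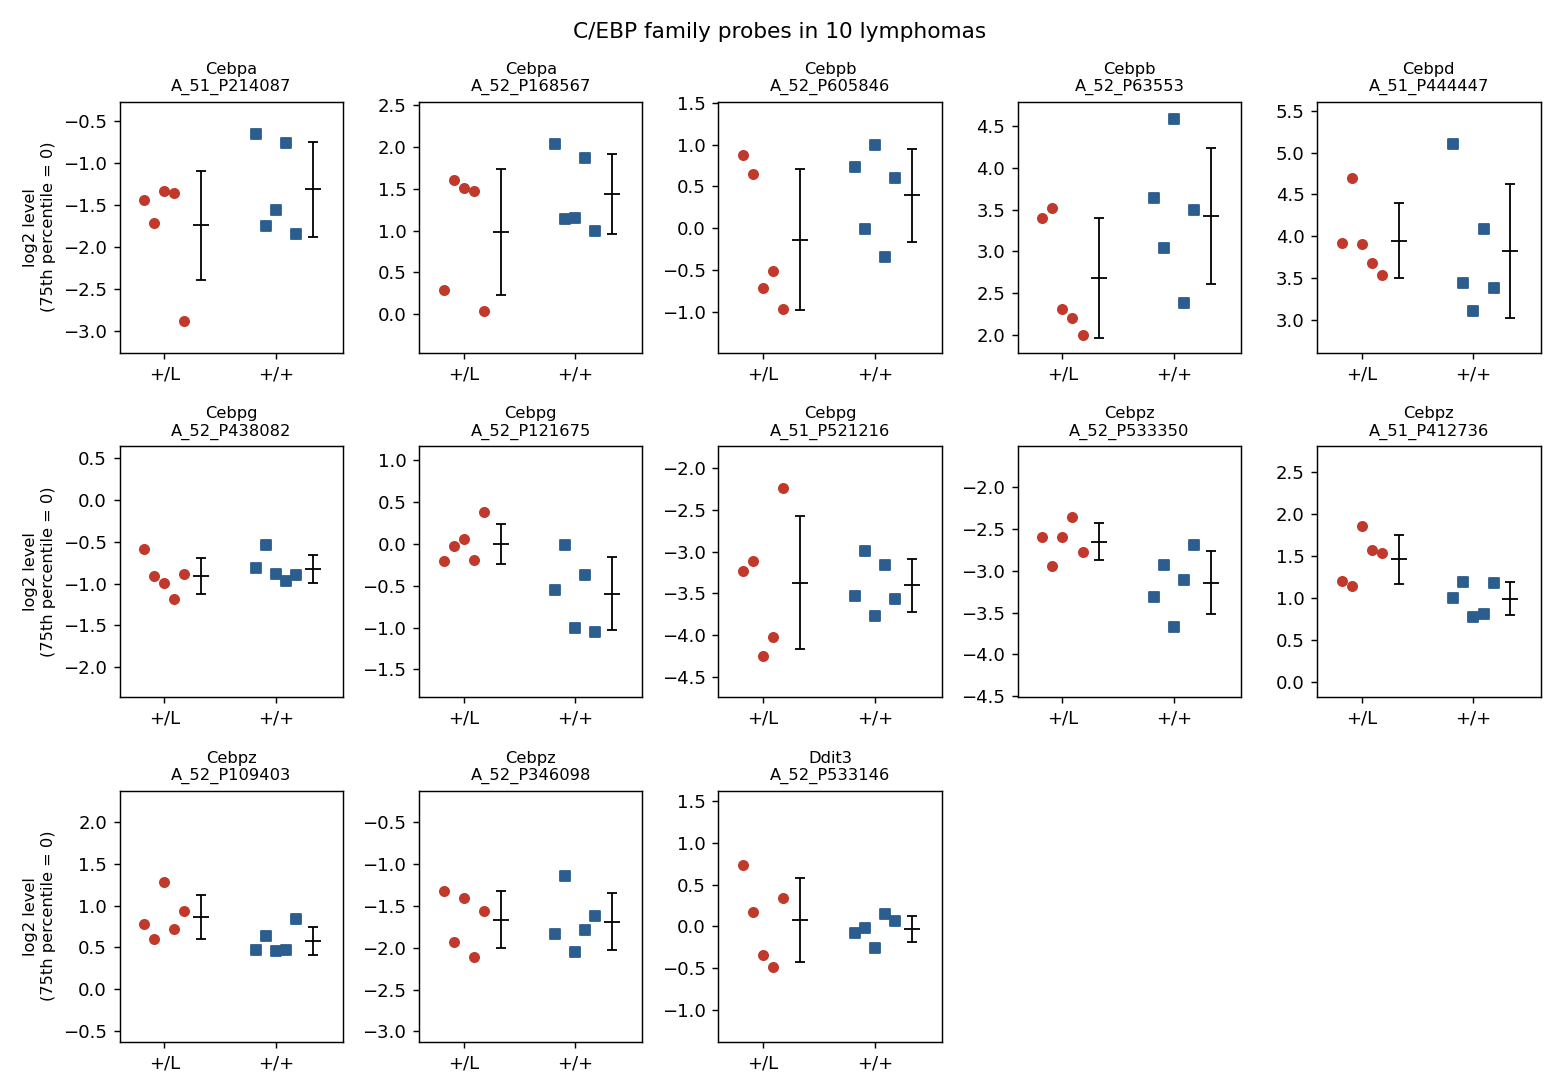
Level (log2, 75th percentile of the array = 0) of each of the 13 family probes in the +/L tumours (circles) and the +/+ tumours (squares); the bar beside each group is the mean ± SD (n = 5), and each panel spans 3 log2 units. The groups overlapped in 13 of 13 panels.

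Cebpb, the gene whose locus carries the LIP allele, spanned 2.58 log2 units over the 10 tumours at its brighter probe, the widest span of the 13 probes. On A_52_P63553 the level was 3.40, 2.20, 1.997, 2.31 and 3.52 in +/L mice 20, 23, 517, 688 and 866, against 3.03, 2.38, 3.49, 3.64 and 4.58 in +/+ mice 11, 17, 19, 40 and 101. The +/L tumours of mice 23, 517 and 688 lay below the lowest +/+ tumour, those of mice 20 and 866 lay among the +/+ tumours, and mouse 101 was the highest of all. The mean was 2.69 ± 0.72 in +/L and 3.42 ± 0.81 in +/+ (SD, n = 5 each), a difference of -0.74 log2 units with a limma 95% interval of -1.73 to 0.25 (limma adjusted p = 0.70; exact permutation p = 0.17). The interval includes both a decrease by 1.73 log2 units and an increase by 0.25, so equal Cebpb mRNA levels were not shown either. The zipper probe A_52_P605846 gave 0.87, -0.52, -0.97, -0.72 and 0.65 in the same +/L mice, against -0.012, -0.35, 0.60, 0.73 and 0.99 in the same +/+ mice. It placed the same 3 +/L tumours below every +/+ tumour, and the probes correlated over tumours with r = 0.94 (n = 10, from the same arrays). Its difference was -0.53 (limma adjusted p = 0.77; exact permutation p = 0.25), or -0.32 without mouse 517 (+/L). With slide as a term the differences were -0.48 on the brighter and -0.30 on the zipper probe, and without mouse 101 (+/+) the brighter probe's was -0.45. Within slides 1, 2 and 3 the brighter probe's difference was -0.15, -0.94 and -0.51, and without mice 20 and 11 it was -1.01 (limma adjusted p = 0.41).

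Cebpa, the factor of granulocyte and hepatocyte differentiation, was spread widely among the +/L tumours. On its brighter probe A_52_P168567 the level was 0.29, 1.48, 0.041, 1.51 and 1.61 in +/L mice 20, 23, 517, 688 and 866, against 1.13, 1.86, 0.99, 2.04 and 1.16 in +/+ mice 11, 17, 19, 40 and 101. Mice 20 and 517 lay below all +/+ tumours, and the other 3 +/L tumours lay within the +/+ range. The difference was -0.45 (95% interval -1.29 to 0.39; limma adjusted p = 0.79; exact permutation p = 0.29). The zipper probe gave -0.43 (limma adjusted p = 0.80), or -0.26 without mouse 40 (+/+) and -0.27 in the deposited table, and it set mouse 517 apart at -2.88, with the other +/L tumours between -1.71 and -1.34. Without mouse 517 the differences were -0.22 on the brighter probe and -0.14 on the zipper probe, and without mouse 20 (+/L) the brighter probe's was -0.28. The brighter probe's difference within slides was -1.05, -0.38 and 0.53, so slide 3 went the other way, and with age as a covariate it was -1.04 (limma adjusted p = 0.87). Without mice 20 and 11 it was -0.35 (limma adjusted p = 0.73).

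Cebpd, an acute-phase factor that is induced by cytokines, had nearly the same mean in both genotypes. Its probe A_51_P444447 gave 3.92, 3.68, 3.53, 3.91 and 4.70 in +/L mice 20, 23, 517, 688 and 866, against 3.44, 4.09, 3.39, 5.11 and 3.11 in +/+ mice 11, 17, 19, 40 and 101. Mouse 40 (+/+) was highest and mouse 101 (+/+) lowest, so the +/+ tumours enclosed the +/L tumours. The difference was 0.12 (95% interval -0.74 to 0.98; limma adjusted p = 0.95), and its sign turned with age as a covariate (-0.39). It was also not the same on the 3 slides (-0.68, 0.17 and 1.45), and without mice 20 and 11 it was 0.032.

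Cebpg, the short partner of other C/EBP and ATF factors, gave different values on its 3 probes. A_52_P121675, in the later part of its RefSeq record, had levels of -0.21, -0.19, 0.38, 0.056 and -0.025 in +/L mice 20, 23, 517, 688 and 866, against -0.017, -0.37, -1.05, -0.55 and -1.01 in +/+ mice 11, 17, 19, 40 and 101. The +/L tumours were close together, and only mouse 11 of the +/+ tumours reached their level. The difference was 0.60 (95% interval 0.060 to 1.14; limma unadjusted p = 0.033, adjusted p = 0.61; exact permutation p = 0.040). It was 0.38, 0.11 and 1.002 within slides 1, 2 and 3, and without mice 20 and 11 it was 0.80 (limma adjusted p = 0.25). The zipper probe A_52_P438082 gave -0.59, -1.18, -0.89, -0.996 and -0.91 in the +/L tumours, against -0.54, -0.97, -0.90, -0.82 and -0.88 in the +/+ tumours, a difference of -0.092 (95% interval -0.49 to 0.31; limma adjusted p = 0.92). This was the steadiest probe of the family, with an SD over tumours of 0.19 that exceeded that of 1.77% of the kept probes. The third probe, A_51_P521216, gave a difference of 0.035 (limma adjusted p = 0.99). The zipper probe and A_52_P121675 correlated over tumours with r = 0.053, so the difference of 0.60 was seen on 1 of 3 Cebpg probes.

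Cebpz, the CCAAT-binding nucleolar factor, was higher on average in +/L on 4 of 4 probes, by between 0.024 and 0.49. Its brightest probe A_51_P412736 gave 1.20, 1.58, 1.54, 1.86 and 1.15 in +/L mice 20, 23, 517, 688 and 866, against 1.19, 0.81, 1.17, 1.004 and 0.77 in +/+ mice 11, 17, 19, 40 and 101. Of the +/L tumours, 4 of 5 lay above the highest +/+ tumour, mouse 20 only just. The difference was 0.47 (95% interval 0.026 to 0.92; limma unadjusted p = 0.040, adjusted p = 0.62; exact permutation p = 0.032), it was 0.62, 0.37 and 0.18 within slides 1, 2 and 3, and it was 0.59 without mice 20 and 11 (limma adjusted p = 0.30). A_52_P533350 differed by 0.49 (exact permutation p = 0.040) and A_52_P109403 by 0.29 (exact permutation p = 0.056), and neither passed after adjustment (limma adjusted p = 0.63 and 0.72). The first of these was 0.16 under quantile normalization, 0.071 with normexp and quantile normalization and 0.047 in the deposited table, and the other was 0.18 without mouse 688 (+/L). The fourth probe, A_52_P346098, starts at base 3766 of the RefSeq record and has a stop codon in every frame. It differed by 0.024 (limma adjusted p = 0.98), with the other sign in 9 of 19 alternatives. It correlated with the other Cebpz probes with r between 0.30 and 0.48, whereas those 3 correlated with each other with r between 0.67 and 0.89.

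Ddit3, which encodes the stress-induced CHOP protein, had close means in both genotypes and a larger SD in +/L. A_52_P533146 gave 0.73, -0.49, 0.34, -0.34 and 0.17 in +/L mice 20, 23, 517, 688 and 866, against -0.024, 0.15, 0.071, -0.079 and -0.25 in +/+ mice 11, 17, 19, 40 and 101. Mice 20, 517 and 866 lay above and mice 23 and 688 below all +/+ tumours, so every +/L tumour was outside the +/+ range. The difference was 0.11 (95% interval -0.45 to 0.67; limma adjusted p = 0.93). The SD was 0.50 in +/L and 0.15 in +/+, and this difference in spread was not tested. Without mice 20 and 11 the difference was -0.053.

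**Figure D2:**
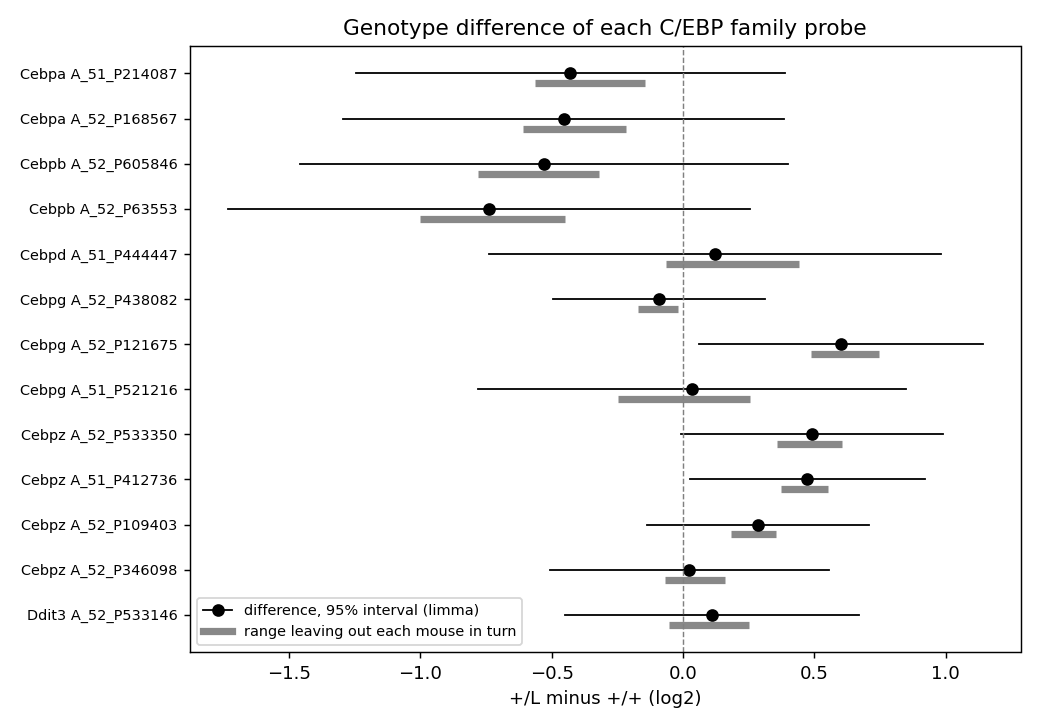
Difference +/L minus +/+ (log2) for each family probe with its limma 95% interval (thin line), and the range of the difference when each mouse was left out in turn (thick grey line). The intervals of Cebpg A_52_P121675 and Cebpz A_51_P412736 lie above 0, and those of the other 11 probes include it.

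The balance of members within a tumour was compared as the log2 ratio of 2 members' brightest probes, which does not depend on the scaling factor of the array. Of 15 ratios, that of Cebpa to Cebpg differed by -1.05 between +/L and +/+ (exact permutation p = 0.040, adjusted over the 15 ratios 0.32). The ratio of Cebpa to Cebpz differed by -0.93 (exact permutation p = 0.071, adjusted 0.32). The ratio of Cebpb to Cebpg differed by -1.34 and that of Cebpb to Cebpz by -1.21 (exact permutation p = 0.087 for each, adjusted 0.32 for each). No ratio passed after adjustment, and those with Cebpg rest on A_52_P121675, which its zipper probe did not match.

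No pair of members passed a test of co-variation over the 10 tumours. Between the brightest probes of 6 members there were 15 pairs, and 0 passed the permutation test after Benjamini-Hochberg adjustment by Pearson's r or by Spearman's rho. The most negative pair was Cebpb with Cebpg (r = -0.72, p = 0.020, adjusted 0.23; rho = -0.70, p = 0.030, adjusted 0.16; permutation tests, 10 tumours). That r was -0.61 with genotype means removed, -0.45 with slide means removed and -0.40 without the 2 tumours farthest from the median Cebpb level. With the Cebpg zipper probe in place of A_52_P121675 the sign turned (r = 0.37). The next was Cebpb with Cebpz (r = -0.68, p = 0.030, adjusted 0.23; rho = -0.76, p = 0.015, adjusted 0.16; permutation tests), with r = -0.56 after slide means were removed and -0.49 without the 2 farthest tumours. Without mouse 17 (+/+), the tumour that was low in both, r was -0.92 and passed adjustment (permutation test, adjusted p = 0.014). With the other Cebpz probes r was between -0.67 and -0.22.

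Cebpg A_52_P121675 and Cebpz gave r = 0.63 (permutation p = 0.051, adjusted 0.25) and rho = 0.68 (permutation p = 0.034, adjusted 0.16). That r was 0.25 once genotype means were removed. The sign turned with the other Cebpg probes in place of A_52_P121675, to r = -0.30 with the zipper probe and -0.18 with A_51_P521216. Cebpa and Cebpd gave r = 0.56 (p = 0.088, adjusted 0.26) and rho = 0.66 (p = 0.043, adjusted 0.16; permutation tests), with r = 0.49 after slide means were removed and 0.87 without the 2 tumours farthest from the median Cebpa level. Cebpb and Cebpd, which are often induced together, showed r = 0.022 (permutation p = 0.95). That r was 0.0040 with slide means removed and 0.38 without the 2 tumours farthest from the median Cebpb level. It was 0.46 without mouse 101 (+/+) and -0.22 without mouse 40 (+/+).

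**Figure D3:**
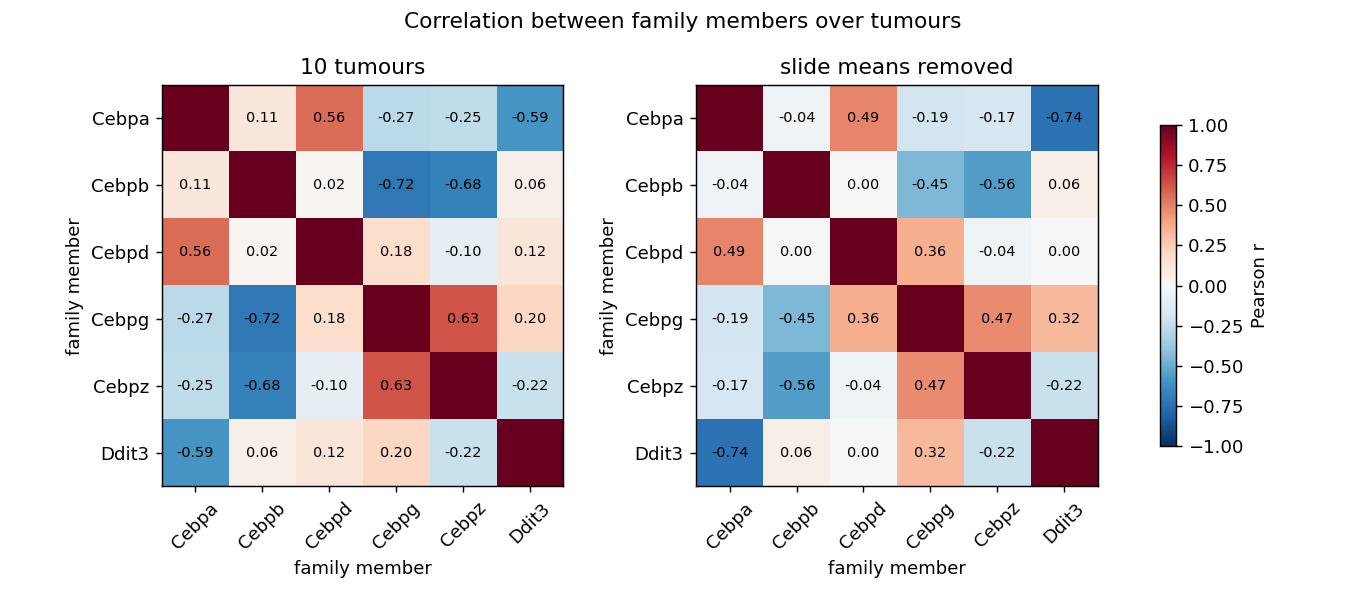
Pearson r between the brightest probes of 6 family members over 10 tumours, as measured (left) and with slide means removed (right); red is positive and blue negative. Cebpb against Cebpg (-0.72) and against Cebpz (-0.68) are the most negative pairs at left, and 0 of 15 pairs passed adjustment.

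Cebpb ranked the tumours much as a list of macrophage markers did. A marker score was the mean, over a list's genes, of each gene's deviation from its own mean over the tumours, and 60 relations of the 6 members with 9 such scores and with age were tested. Cebpb and the score of 10 macrophage markers gave rho = 0.92 (permutation p = 0.00058, adjusted 0.035) and r = 0.69 (permutation p = 0.021, adjusted 0.53), and by rho this was the only relation of the 60 to pass. It did not pass under another scaling: rho was 0.88 with the median as scale (adjusted permutation p = 0.11) and 0.66 after quantile normalization (adjusted permutation p = 0.37). With slide means removed rho was 0.56 and r 0.50, with genotype means removed they were 0.75 and 0.61, and without the 2 farthest tumours 0.90 and 0.74. The score spanned -1.97 to 0.79 in +/L tumours, against -0.26 to 0.90 in +/+ tumours, with its lowest value in mouse 517, which also had the lowest Cebpb level. Among the single markers reported here, Fcgr1, C1qa, C1qb, C1qc, Cd68 and Csf1r correlated with Cebpb with r between 0.57 and 0.73 over the 10 tumours, whereas Adgre1, Mrc1 and Lyz2 gave 0.14, 0.081 and -0.18. The part of macrophage content in the Cebpb differences was not tested. Against the same score Cebpg and Cebpz gave rho = -0.72 (permutation p = 0.023, adjusted 0.33) and -0.82 (permutation p = 0.0061, adjusted 0.18), and Cebpa gave 0.53 (permutation p = 0.12, adjusted 0.62). With slide means removed rho was -0.19 for Cebpg, -0.37 for Cebpz and 0.76 for Cebpa. The Cebpg values rest on A_52_P121675, which its zipper probe did not match.

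Cebpd was related before adjustment to other marker lists. It gave rho = 0.76 with the score of 9 neutrophil markers (permutation p = 0.015, adjusted 0.30; r = 0.70, permutation p = 0.025, adjusted 0.53) and rho = 0.71 with 6 fibroblast markers (permutation p = 0.028, adjusted 0.33; r = 0.68, permutation p = 0.034, adjusted 0.53). With slide means removed these r were 0.68 and 0.74, and without the 2 tumours farthest from the median Cebpd level 0.59 and 0.43. Neither passed adjustment.

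**Figure D4:**
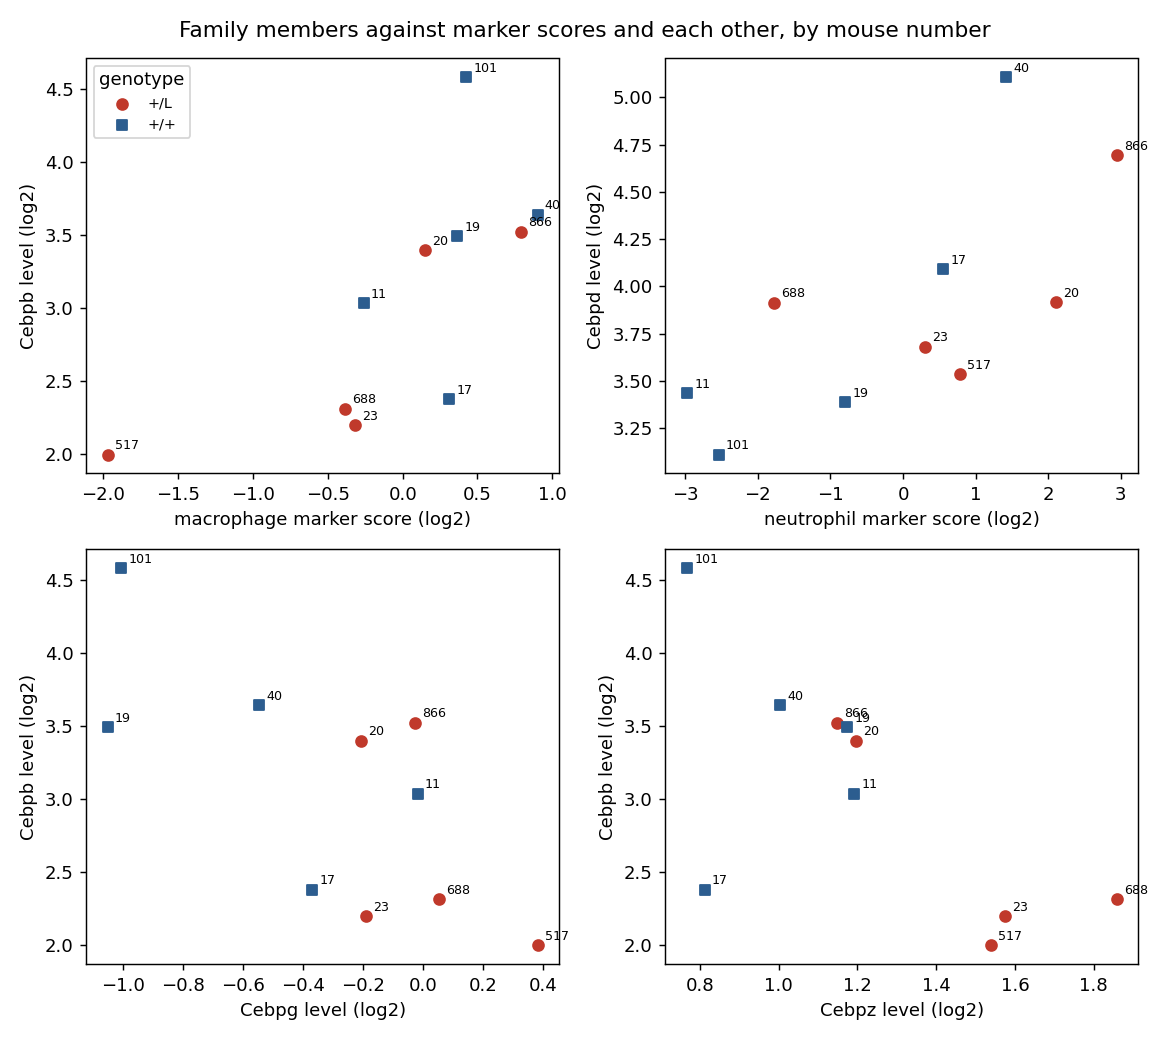
Level of Cebpb against the macrophage marker score (top left), of Cebpd against the neutrophil marker score (top right), and of Cebpb against Cebpg and Cebpz (bottom), each in log2 units with 1 point per tumour and its mouse number; circles are +/L and squares +/+. The tumour of mouse 517 is lowest in both the macrophage score (-1.97) and Cebpb (1.997).

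The genes whose levels were most like those of each member were read from 11120 genes well above background on all 10 arrays. Over the 10 tumours Cebpb was most like Agtrap (r = 0.91), Grina (0.91), Vat1 (0.90), Ptgdr2 (0.88) and Prm1 (0.88). Cebpd was most like Lpl, the lipoprotein lipase (r = 0.95), Cd14, the lipopolysaccharide co-receptor of myeloid cells (0.91), and Rin2 (0.91). Cebpa was most like the integrin gene Itga9 (0.94), Acsl5 (0.93) and Hebp1 (0.93). Cebpg A_52_P121675 was most like Insig2, a brake on sterol synthesis (0.96), Lysmd3 (0.95) and Gabpa (0.94). Cebpz was most like the ribosome-associated methyltransferase gene Prmt3 (0.89), Llph (0.88) and Lias (0.88), and Ddit3 was most like Btg3 (0.93), Slc33a1 (0.93) and Zfp846 (0.92). These genes were picked for the largest r and share the arrays with the member, so the values are a description.

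Around the family, 7 gene lists were read with 1 probe per gene. In limma over 17785 genes the share called at an adjusted p under 0.05 was 0% (0 genes), while 8.57% had an unadjusted p under 0.05 (3.14% higher and 5.43% lower in +/L) and 1.8% had groups that did not overlap. No list gene passed, the lowest limma adjusted p being 0.54, and the median difference over all genes was -0.022.

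Of 16 genes listed around the control of translation into LAP or LIP, 9 were higher and 7 lower in +/L (median 0.019). At an unadjusted limma p under 0.05 there was 1 of each. The translation of Cebpb mRNA itself was not measured. Tsc2, the brake on mTOR signalling, lay between 2.97 and 3.49 in +/L and between 3.54 and 4.14 in +/+, so that the groups did not overlap (difference -0.57; limma adjusted p = 0.54; exact permutation p = 0.0079, the smallest that 5 against 5 can give). Sbds, a ribosome maturation factor, differed by 0.44 and Eif2ak1, the haem-regulated eIF2a kinase, by -0.42 (limma adjusted p = 0.57 and 0.61). With age as a covariate Tsc2 differed by -0.29 and Eif2ak1 by -0.15, and Tsc2 differed by -0.35 with normexp and quantile normalization and by -0.33 in the deposited table.

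Of 15 measured upstream regulators, 11 were lower in +/L and 4 higher (median -0.13), and the 3 at an unadjusted limma p under 0.05 were lower. They were the receptor genes Csf2ra (difference -1.18) and Csf3r (-1.16) and Spi1, the myeloid factor PU.1 (-0.84), with limma adjusted p = 0.54, 0.55 and 0.55. Il6, 1 of the 4 higher regulators, passed the filter through its +/L arrays alone. Of the 14 regulators well above background on all 10 arrays, 3 were higher. With age as a covariate Csf2ra differed by -1.97 and Csf3r by -2.08. Spi1 correlated with Cebpa with r = 0.77 and with Cebpb with r = 0.52 over the 10 tumours. The macrophage marker score was lower by 0.70 in +/L (exact permutation p = 0.20), and its part in these values was not tested.

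Among 25 other bZIP factors, 16 were lower and 9 higher in +/L (median -0.17), with 4 lower and 1 higher at an unadjusted limma p under 0.05. Atf4, the stress factor that acts upstream of Ddit3, was that 1 (difference 0.81; limma adjusted p = 0.55). It spanned 1.14 to 2.26 in +/L, against 0.13 to 1.46 in +/+. Batf2 differed by -1.41 and Dbp, a PAR-type bZIP factor of the circadian clock, by -0.56 (limma adjusted p = 0.54 and 0.57), and the other 2 lower ones, named after their values were seen, were Batf (-0.76) and Junb (-0.64). With age as a covariate Dbp differed by 0.0028. No alternative was run for Batf and Junb. Of 18 stress genes of the CHOP and ATF4 programme, 13 were lower in +/L and 5 higher (median -0.29). Bcl2l11, the death gene Bim, spanned 1.41 to 2.49 in +/L, against 2.51 to 2.77 in +/+ (difference -0.68; limma adjusted p = 0.54), and the death receptor gene Tnfrsf10b and Herpud1, of ER-associated degradation, differed by -0.53 and -0.64 (limma adjusted p = 0.64 and 0.65). Herpud1 turned to 0.32 with age as a covariate, and was -0.40 with normexp and quantile normalization, -0.38 in the deposited table and -0.35 without mouse 866 (+/L). Tnfrsf10b lay between -0.99 and -0.24 over the alternatives.

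Of 17 measured inflammatory and acute-phase genes, 9 were lower and 8 higher (median -0.011). Of the 17, 10 were well above background on all 10 arrays, and 1 of those 10 was higher. The near balance of the full list thus came with its dimmer genes. The chemokine gene Ccl3 spanned -1.43 to 0.98 in +/L, against 0.89 to 3.35 in +/+ (difference -1.99; limma adjusted p = 0.54). The complement gene C3 spanned 7.83 to 8.89 in +/L, against 9.23 to 9.44 in +/+, without overlap (difference -0.75; limma adjusted p = 0.54; exact permutation p = 0.0079). That difference depended on the normalization: it was -0.31 with normexp and quantile normalization, -0.28 with quantile normalization and -0.070 in the deposited table. Arg1, a C/EBPb target in macrophages, was well above background in 3 of 5 +/L tumours and in 0 of 5 +/+ tumours. It passed the filter through its +/L arrays alone, as did Il6 and Cxcl1, so neither a fold nor a test is given for it.

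Granulocyte genes were higher in +/L for 13 of 14 measured members (median 0.95), the exception being Csf3r, and 2 of the 13 had an unadjusted limma p under 0.05. S100a9, a calprotectin subunit, spanned 1.09 to 6.07 in +/L, against -1.57 to 3.82 in +/+ (difference 2.99; limma adjusted p = 0.57), and Retnlg differed by 2.26 (limma adjusted p = 0.57). With age as a covariate S100a9 differed by 0.98 and Retnlg by 1.24, and Retnlg differed by 0.98 with normexp and quantile normalization and by 0.76 in the deposited table. Retnlg was well above background on 3 of 5 +/+ arrays. Of the 14, 5 were well above background on all 10 arrays, and 4 of those 5 were higher. The neutrophil marker score, which shares genes with this list, spanned -1.78 to 2.94 in +/L, against -2.98 to 1.42 in +/+, and 2 of its 9 genes were well above background on all 10 arrays. Of 10 measured adipogenic genes, 8 were higher in +/L (median 2.25). The 3 named from this list were Cfd (difference 5.03, limma unadjusted p = 0.029, adjusted p = 0.56), Cidec and Retn. Those 3 were well above background on 5, 5 and 4 of the 5 +/L arrays, against 4, 2 and 1 of the 5 +/+ arrays. Cidec and Retn thus passed the filter through their +/L arrays alone, so the count and the median partly restate the filter. For that reason neither a fold nor a test is given for Cidec and Retn. Of the 10 genes, 5 were well above background on all 10 arrays, and 3 of those 5 were higher. The score of 6 adipocyte markers, which includes Cfd, Cidec and Retn, spanned -2.23 to 4.47 in +/L, against -3.12 to 2.16 in +/+. The parts of neutrophil and adipocyte content in the granulocyte and adipogenic values were not tested.

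**Figure D5:**
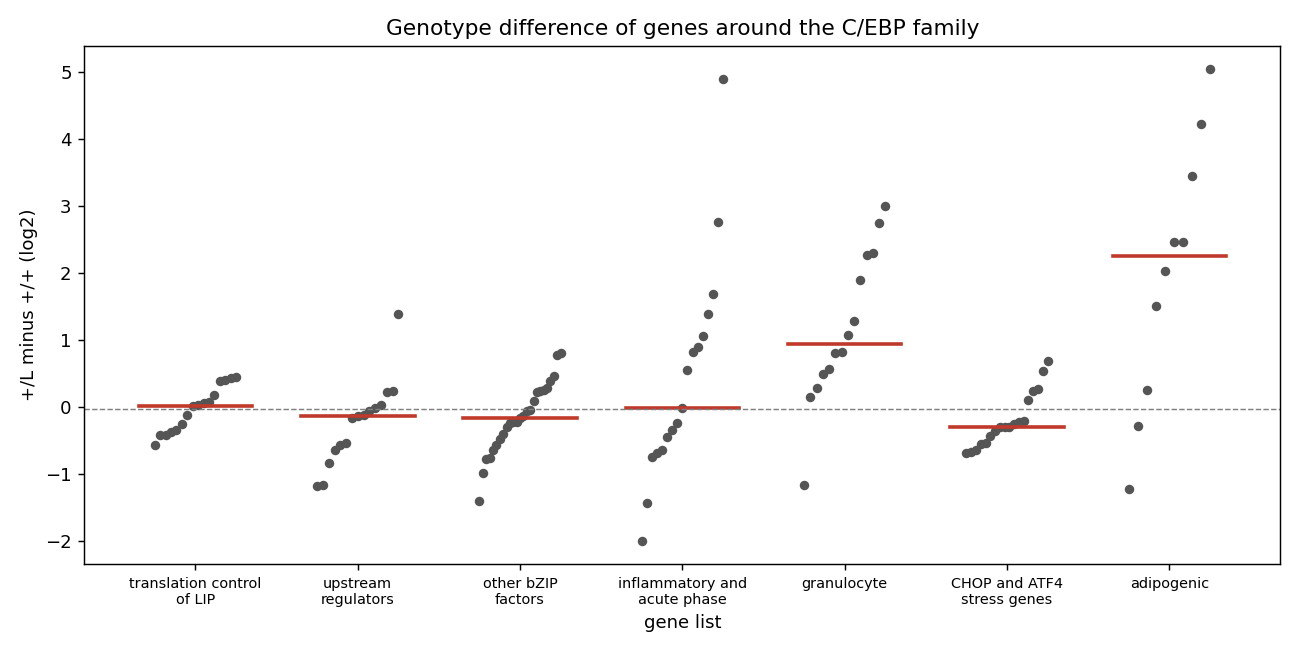
Difference +/L minus +/+ (log2) of each measured gene of 7 lists around the C/EBP family (points, sorted within a list), with the list's median (red bar) and the median over all genes (dashed line, -0.022). The adipogenic (2.25) and granulocyte (0.95) medians lie highest; the topmost inflammatory point is Arg1, whose +/+ signal was not well above background.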

How the data were processed

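Total RNA of 10 lymphomas was labelled with Cy3 and hybridised to 1 Agilent mouse array each. Per the file headers, the authors' scanner output was made with Agilent Feature Extraction 10.5.1.1, and its processed signal is a background-subtracted intensity. The authors also deposited a table of log2 values for these arrays, and how they normalized it is not given in the labels or headers used here. Each column correlated with the scanner values of its own array with r between 0.967 and 0.997 and the table was used as an alternative.

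Control spots and outlier-flagged spots were left out, spots of a probe were averaged, and log2 intensity was centred on each array's 75th percentile. No column of the value table was left unused (0). The 26432 probes that passed the well-above-background call on 3 arrays or more were tested with limma 3.58.1 in R 4.3.3 (lmFit and eBayes, no covariate), with Benjamini-Hochberg adjustment over all of them at 0.05. Exact permutation tests were two-sided. Correlations used two-sided permutation tests with 100000 resamples, computed with numpy 2.4.6. Ranks and the adjustment over pairs or relations came from scipy 1.17.1. The fit was tested on simulated data with 200 changed probes in 10 runs.

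For members other than Cebpb, 3 most similar genes were named, for Cebpb 5; in each list the 3 genes of lowest unadjusted limma p were named, with the brightest probe per gene. Names came from accessions or symbols in a RefSeq table where matched. The members, lists and tests were chosen with earlier results of these data known. Each mouse is 1 sample. The value of 1 macrophage marker is not reported here. The number of arrays limits the precision. Alternatives changed the scaling, the background correction, the filter, the covariates and the mice included.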

Additional observations from a re-analysis of the deposited data

Results flagged for a closer look

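In the +/L group the zipper probe of Cebpa, A_51_P214087, was at -2.88 (log2) in the tumour of mouse 517, with the other 4 +/L tumours between -1.71 and -1.34. The gap to the nearest of them was 0.76 of the group's range, above Dixon's critical value of 0.71 for 5 samples. This was 1 of 26 groups examined (13 probes in 2 genotypes), and chance alone flags about 1 in 20 groups. The same tumour was also the lowest +/L tumour on the other Cebpa probe, at 0.041.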

How the results depend on the processing

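No paired analysis was possible because the groups share no replicate number. The count of probes past an adjusted p of 0.05 in limma was 0, and it was 1 with normexp and quantile normalization, 1 with the deposited value table and 0 in the other 10 settings that kept the number of mice or left out mice 20 and 11; leaving out each mouse gave 0 to 3, the 3 without mouse 517 (+/L). The number at an unadjusted p under 0.05 was 2102 (869 higher, 1233 lower), 671 higher and 1530 lower after quantile normalization, 3640 without mice 20 and 11, 3349 without mouse 20 (+/L) and 1277 without mouse 101 (+/+). Keeping all probes moved the median difference to 0.18.

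The Cebpb brighter probe kept its sign and passed the threshold in 0 of 21 alternatives (-1.01 to -0.48, and -1.001 to -0.45 leaving out each mouse). Of 49 results, 42 turned sign in no alternative computed for them. Those 42 include the counts of probes, of member pairs and of relations that passed, which have no sign to turn. With age as a covariate Cebpd turned to -0.39, Cebpg A_52_P438082 to 0.057, Dbp to 0.0028 and Herpud1 to 0.32. Cebpg A_51_P521216 was -0.078 with normexp and quantile normalization, -0.35 with quantile normalization, -0.040 in the deposited table and -0.049 with slide as a term, and Cebpz A_52_P346098 was -0.088, -0.11, -0.071 and -0.031 in the same settings. Ddit3 was -0.053 without mice 20 and 11. Leaving out each mouse gave -0.065 to 0.44 for Cebpd, -0.25 to 0.25 for Cebpg A_51_P521216, -0.067 to 0.16 for Cebpz A_52_P346098 and -0.053 to 0.25 for Ddit3. The sign turned without mouse 866 (+/L) or 101 (+/+) for Cebpd, without mouse 20 (+/L) for Ddit3, without mouse 20, 517 or 866 (+/L) or 19 or 101 (+/+) for that Cebpg probe, and without mouse 20, 517 or 688 (+/L) or 40 or 101 (+/+) for that Cebpz probe. The cause was not tested.

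The number of member pairs that passed by r was 0 and 0 to 1 leaving out each mouse, the 1 without mouse 17 (+/+). The number of relations with age and marker scores that passed by rho was 1. It was 0 with the median as scale, with normexp and quantile normalization, with quantile normalization, in the deposited table, with genotype or slide means removed and without the 2 farthest tumours, and 0 to 2 leaving out each mouse; it was 2 without mouse 866 (+/L), 1 without mouse 101 or 17 (+/+) and 0 without any other mouse. Alternatives for marker scores, ratios and list genes were added after seeing the data. Cebpg A_51_P521216, which was not well above background on 1 array, is limited by its dim signal.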
